A study of Homo sapiens with 8 samples.

Results

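The 53 genes described here are ribosomal protein pseudogenes that are expressed in D283-OMO cells, out of 15221 genes tested and 60668 listed. They were chosen by their annotation and their measured level: a pseudogene type and a symbol built from a ribosomal protein name, P and a number in GENCODE 29, and a level above 1 CPM (a gene's counts scaled to the library total) in at least 4 of the 8 libraries. Of the 1145 pseudogenes with such a symbol, 495 had no count in any library and 597 had counts but stayed below this level. D283 MED is an established medulloblastoma cell line with high MYC levels, and D283-OMO is its derivative transduced with a lentivirus that carries FLAG-tagged OMOMYC under doxycycline (DOX) control. OMOMYC is a dominant-negative miniprotein derived from MYC. The OMO group holds 4 untreated replicates and the OMO+DOX group 4 replicates treated with DOX for 72 h, both from the same transduced line and profiled by RNA-Seq of polyA+ RNA. No DOX-treated line without the transgene was analysed here, so DOX and OMOMYC cannot be told apart.

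Ribosomal protein genes encode the protein components of the large (RPL) and small (RPS) ribosomal subunits. Their abundant mRNAs were often copied back into the genome by retrotransposition, which leaves intronless processed pseudogenes that resemble the parent's coding sequence and usually lack its promoter. Copies that are themselves transcribed, or that sit inside a longer transcript, are annotated as transcribed pseudogenes. MYC is a known activator of ribosome production, and the comparison asks how the copies move beside their parents when MYC function is inhibited. A short read from a conserved stretch matches both parent and copy, and RSEM divides such reads between genes in proportion, which gives expected counts that are not whole numbers.

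Total counts ranged from 38390696 to 54020506 per library. OMO replicate 3 had the highest share of counts on the 32 parent genes, 6.97% of its total against 5.77% to 6.09% in the other OMO libraries and 5.17% to 5.74% with DOX. In the cell type check, 5 of the 7 medulloblastoma group 3 and photoreceptor-like markers fell with DOX and 2 rose, among them MYC itself. MYC reads cannot be told apart from those of the transgene. Of 9 stromal, endothelial and immune markers, 5 were below 1 CPM in every library. PTPRC and CD3E, defining markers of leukocytes, were among these. Their summed level was 38.2 to 39.7 CPM in OMO and 58.6 to 72.3 CPM with DOX, and its part in the results below was not tested.

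Many expressed ribosomal protein pseudogenes fell with DOX, as most of their parents did, and a small set rose. Of the 53 pseudogenes, 31 fell and 7 rose at an adjusted p below 0.05, and 15 did not pass the test. Among the 7 are 2 that passed the filter on low levels only through the DOX libraries. Over all genes tested, 38.1% fell and 38.6% rose, so that the falls made up a larger share of the pseudogenes (58.5%) and the rises a smaller one (13.2%). The median log2 fold change (log2FC) of the pseudogenes was -0.31, against 0.01 over all genes tested. The 31 falls ran from -0.76 to -0.22 and were therefore moderate. With library size only in place of TMM scaling, the median of all genes tested was 0.14 and that of the pseudogenes -0.18. In that fit 22 pseudogenes fell and 7 rose, beside 31.1% fallen and 47.0% risen over all genes tested. Without OMO replicate 3, 28 pseudogenes fell and 7 rose. Of the 51 that were tested without a DOX library, 22 fell without OMO+DOX replicate 1 and 25 without replicate 2, and 5 rose in each. For these fits without a library, shares over all genes tested are not given here. In bulk RNA, fewer cells that express a gene and less RNA per cell cannot be told apart.

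Most parents fell. Among the 32 parent genes, 26 fell, none rose and 6 did not pass the test, and their median log2FC was -0.29. With library size only, 18 fell and 1 rose. Without OMO+DOX replicate 1, and likewise without replicate 2, 18 fell and none rose, and without OMO replicate 3, 26 fell and 1 rose. All 31 pseudogenes that fell have a parent that fell as well, and all 7 that rose also have a parent that fell. Of the 15 that did not pass the test, 7 have a parent that fell and 8 a parent that was not called. Across the 53 pairs, which share libraries and in part reads, Spearman's rho between the log2FC of pseudogene and parent was 0.74 and Pearson's r was 0.38, given as a description only.

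**Figure D1:**
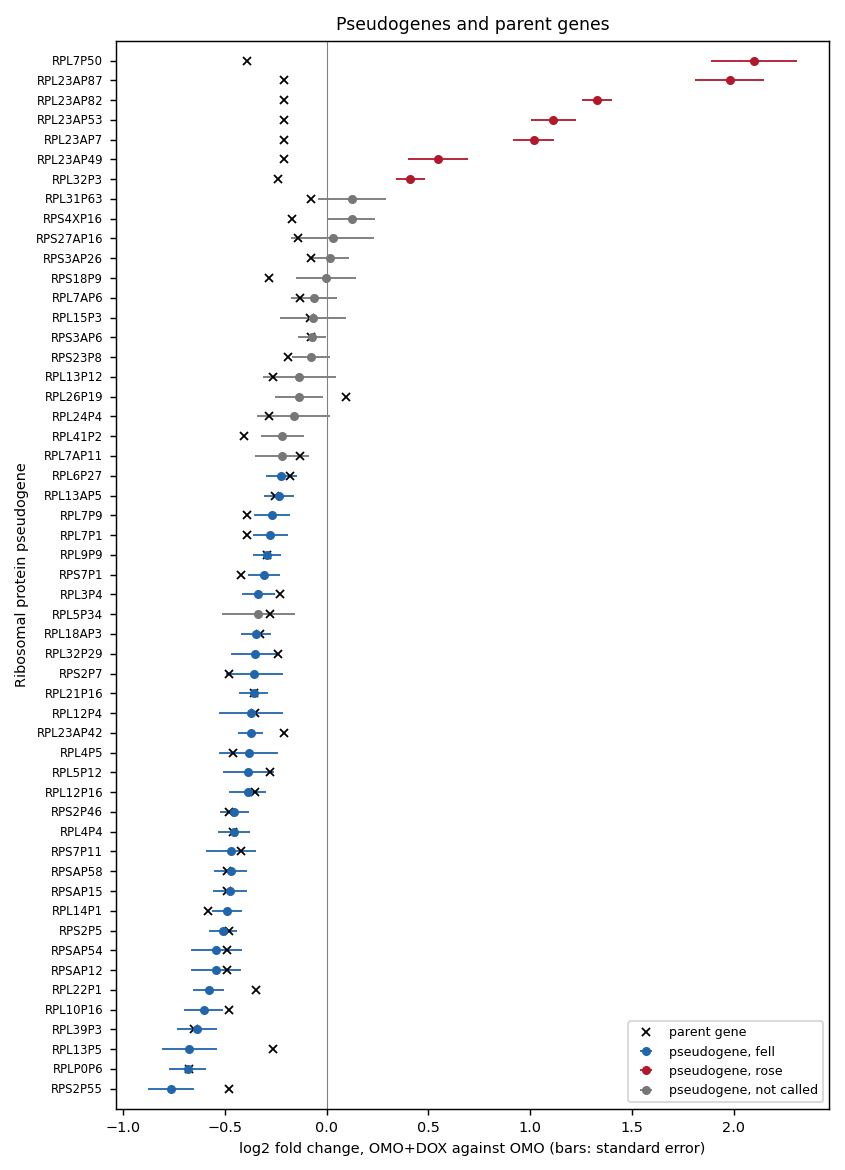
Each row is 1 of the 53 pseudogenes, with its log2 fold change of OMO+DOX against OMO on the horizontal axis (dots, bars are standard errors) and that of its parent gene (crosses). The dots of the 31 pseudogenes that fell lie near their crosses, while the 7 that rose stand to the right of 0 with crosses left of 0.

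The wider set of ribosomal protein genes moved the same way. Of 47 genes of the large subunit, 36 fell and none rose, with a median log2FC of -0.29. Of 32 genes of the small subunit, 22 fell and none rose, with a median of -0.30. With library size only, 45 of all 79 fell and 3 rose. Without OMO replicate 3, 58 fell and 3 rose. Among 40 genes of ribosome biogenesis, the factors that make and process rRNA, 27 fell and 7 rose. FBL, the methyltransferase of box C/D snoRNPs, fell by 1.55 on the log2 scale, and NPM1, an abundant nucleolar chaperone, fell by 0.78. NOP56, another box C/D protein, rose by 1.02. Of the 6 tested ribosomal protein paralogs, which are diverged genes and not pseudogenes, RPL39L and RPL36AL fell and RPS27L rose by 1.63. In the 27 parents found in the RefSeq promoter table, which covers 300 bases around the start of each gene, the E-box CACGTG, a palindrome that MYC and MAX can bind, occurred in 1 (RPL13A). It occurred in 7.26% of all 35116 promoters, and no pseudogene has an entry in that table.

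The pseudogenes differed widely in level. Their mean over the 8 libraries, in CPM with TMM-scaled library sizes, ran from 0.767 to 375, with a median of 6.47. RPS2P5, RPL9P9 and RPL23AP42 held 49.8% of all counts of the 53 pseudogenes, and the 10 most abundant held 78.6%. Together the 53 took 0.163% to 0.194% of the total in the OMO libraries and 0.141% to 0.155% with DOX. In OMO a pseudogene had a median of 0.364% of its parent's counts, 37 of the 53 had below 1%, and the highest had 18.7%.

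RPS2P5, the most abundant member, is a processed copy of RPS2, a protein of the small subunit. Its gene (ENSG00000240342.3) lies on the plus strand of chromosome 12 at 118246084 to 118246962 (GRCh38), within TAOK3 on the opposite strand. Its level was 424, 421, 503 and 413 CPM in OMO replicates 1 to 4 and 295, 303, 305 and 336 CPM with DOX. Every OMO library was above every DOX library, and OMO replicate 3 was apart from the other 3. The log2FC was -0.51 (SE 0.07, adjusted p = 3.2e-05, edgeR), beside -0.48 (SE 0.07) for RPS2. Its summed counts stood at 10.3% of those of RPS2 in OMO and at 10.1% with DOX.

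Other abundant copies also held nearly the same proportion of their own parent's counts in both groups. RPL9P9, on chromosome 15, is a copy of RPL9, a large subunit protein, and is annotated as transcribed. It had 323, 335, 402 and 333 CPM in OMO and 265, 293, 293 and 284 CPM with DOX, without overlap. Its log2FC was -0.30 (SE 0.07, adjusted p = 0.00225, edgeR) and that of RPL9 was -0.29. It held 18.7% of the counts of RPL9 in both groups. RPSAP58, on chromosome 19, is a copy of RPSA, a small subunit protein also known as a laminin receptor. RPSAP58 had 111, 127, 148 and 126 CPM in OMO and 85.1, 91.2, 95.4 and 97.2 CPM with DOX. The groups did not overlap, and its counts were 9.52% of those of RPSA in OMO and 9.63% with DOX. RPL21P16, on chromosome 10, copies RPL21, another large subunit gene. It held 7.55% of its parent's counts in both groups, at a log2FC of -0.36 for each of the pair. The copies share sequence with their parents. Of their 100-base windows, 30.4% of RPS2P5, 74.5% of RPL9P9, 51.3% of RPSAP58 and 100% of RPL21P16 also occur in the parent. Reads from shared stretches are divided between genes, and their part in these proportions was not tested.

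RPL21P16 and RPL39P3 are identical to the coding sequence of their parents over its whole length. Of the 100-base windows of these transcripts, none is particular to them. RPL39 encodes a small protein that lines the exit tunnel of the large subunit. RPL39P3 (ENSG00000235174.1) consists of this coding sequence alone, and it is shown because a read within it could come from either gene except where the parent's reads run beyond it. It lies on the minus strand at chr6:73373108-73373263 (GRCh38), in 1 exon. The same 156 bases of RPL39 are spread over more than 1 exon on chromosome X. No base is in capitals because no base differs.
RPL39P3: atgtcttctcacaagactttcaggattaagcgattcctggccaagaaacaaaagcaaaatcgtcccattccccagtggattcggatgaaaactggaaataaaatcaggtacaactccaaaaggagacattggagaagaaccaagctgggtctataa

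RPL39P3 had 47.4, 50.6, 62.6 and 47.0 CPM in OMO and 31.9, 36.3, 29.3 and 36.2 CPM with DOX, and the groups did not overlap. Its log2FC was -0.64 (SE 0.10, adjusted p = 0.0001, edgeR) and that of RPL39 was -0.65 (SE 0.07). RPL39P3 stood at 4.81% of the parent's counts in OMO and at 4.84% with DOX. Per kilobase of transcript, its OMO level was 12.4% of that of RPL39.

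**Figure D2:**
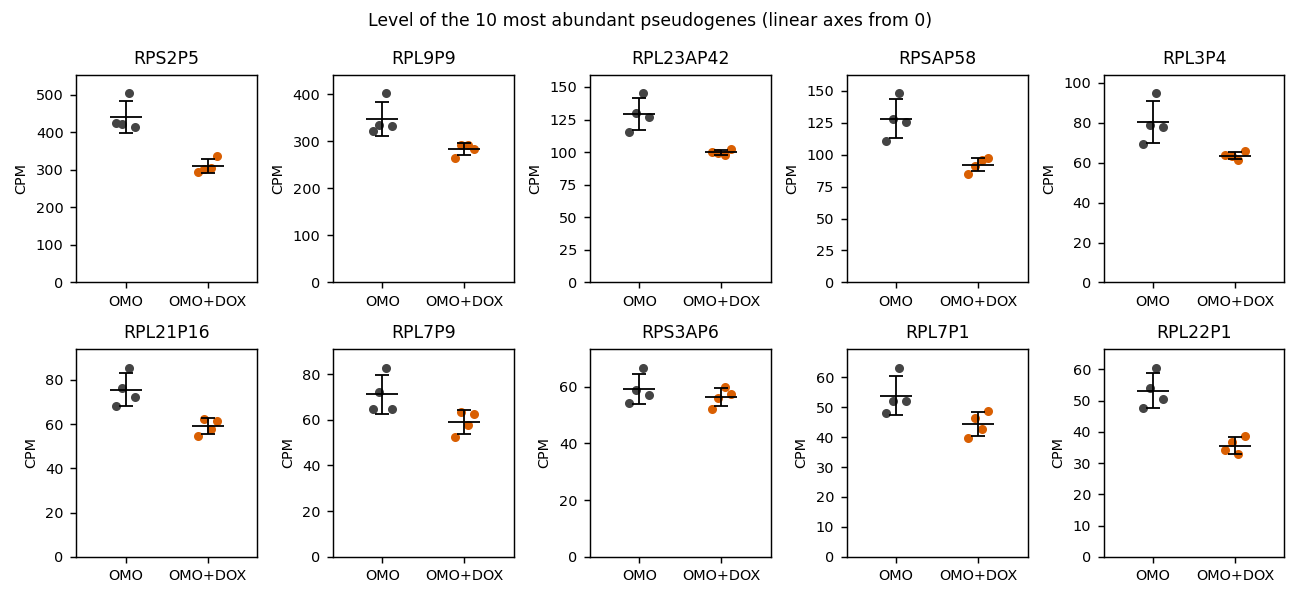
Each panel shows the level of 1 of the 10 most abundant pseudogenes in CPM with TMM-scaled library sizes, on a linear axis from 0. Dots are the 4 OMO and 4 OMO+DOX libraries, and the line with whiskers is the mean with its SD. The groups are apart in 8 panels and overlap for RPS3AP6 and RPL7P1.

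The other abundant members followed their parents less closely or did not pass the test. RPL23AP42, a processed copy of RPL23A on chromosome 3, had 115, 130, 145 and 127 CPM in OMO and 99.8, 99.0, 97.8 and 102 CPM with DOX. It fell by 0.37 on the log2 scale (SE 0.06, adjusted p = 0.000194, edgeR), and RPL23A, a protein near the exit tunnel of the ribosome, fell by 0.21 (SE 0.07). RPL22P1, also on chromosome 3, copies RPL22, an RNA-binding large subunit protein, and went from 53.2 ± 5.52 to 35.6 ± 2.57 CPM (mean ± SD, n = 4 in each group). It fell by 0.58 (SE 0.08), and RPL22 fell by 0.35 (SE 0.06). These were the only pseudogenes whose log2 ratio to the parent was lower in every DOX library than in every OMO library. Among 213 other expressed pseudogenes with a tested parent, 12.7% had a ratio without overlap in this direction. Such a separation of 4 against 4 libraries fixes the exact permutation test, two-sided, at p = 0.0286, so the p adds no support.

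RPL3P4, on chromosome 14, fell by 0.34 (SE 0.08), beside 0.23 (SE 0.07) for RPL3, a core protein of the large subunit. RPL7P9 on chromosome 1 and RPL7P1 on chromosome 5 copy RPL7, a large subunit protein that fell by 0.39. They fell by 0.27 (SE 0.09) and 0.28 (SE 0.09). Both calls were lost with library size only, without OMO+DOX replicate 1 and without OMO+DOX replicate 3, at log2FC from -0.23 to -0.14 and adjusted p from 0.0554 to 0.128 (edgeR). RPS3AP6, on chromosome 15, went from 59.3 ± 5.30 to 56.4 ± 3.21 CPM (mean ± SD, n = 4 in each group) and overlapped between groups. Its log2FC of -0.07 (SE 0.07, adjusted p = 0.341, edgeR) stood beside -0.08 for RPS3A, whose protein belongs to the small subunit and which did not pass the test either, and its sign turned with library size only.

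The largest falls included members of low level. RPS2P55, a processed copy of RPS2 (ENSG00000216866.5, chromosome X, 40934982 to 40935864, minus strand), had 6.41, 5.21, 5.63 and 5.17 CPM in OMO and 3.61, 2.68, 3.48 and 3.36 CPM with DOX. The groups did not overlap, and the log2FC was -0.76 (SE 0.11, adjusted p = 6.27e-05, edgeR). Its ratio to RPS2 overlapped between groups (exact permutation test, two-sided, p = 0.2). RPLP0P6, on chromosome 2, copies RPLP0, the base of the ribosomal stalk, and went from 14.03 ± 1.76 to 8.74 ± 0.648 CPM (mean ± SD, n = 4 in each group). Its log2FC was -0.68 (SE 0.09) and that of RPLP0 was also -0.68, rounded. RPL10P16, on chromosome 19, fell by 0.60 (SE 0.10), RPL10, which helps to join the subunits, by 0.48 (SE 0.07), and the copy shares an exon with AC010422.3, which fell by 0.54. RPSAP54, on chromosome 13, fell by 0.54 (SE 0.13), beside 0.49 for RPSA. All 4 expressed copies of RPS2 and all 4 of RPSA fell, as did 38.1% of all genes tested. These copies share windows with their parents and with one another, so their falls are not independent of each other in these counts. RPS2P5 shares 30.4% of its windows with RPS2 and 25.1% with RPS2P55, and RPSAP58 shares 51.3% with RPSA.

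RPL13P5 differs most from its parent among these. It is annotated as a transcribed pseudogene with 3 exons on chromosome 12 (6873389 to 6884741, plus strand), and its exons overlap those of LRRC23 and of the pseudogene DSTNP2 on the same strand. It had 3.25, 3.89, 4.08 and 3.14 CPM in OMO and 2.70, 2.36, 1.85 and 2.08 CPM with DOX, without overlap. The log2FC was -0.67 (SE 0.14, adjusted p = 0.00081, edgeR), against -0.26 (SE 0.08) for RPL13. The ratio of RPL13P5 to RPL13 overlapped between groups (exact permutation test, two-sided, p = 0.0857). DSTNP2 fell by 0.91, while LRRC23 had a log2FC of 0.14 and did not pass the test.

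RPL13P5 is printed beside RPL13 as a copy of low identity (78.7%), over the first stretch of 120 bases that aligns without gaps. These are bases 205 to 324 of the coding sequence of RPL13 (chromosome 16, plus strand). Capitals mark bases that differ from the parent. The copy lies at chr12:6884189-6884308 (GRCh38) on the plus strand and differs at 24 bases.
RPL13: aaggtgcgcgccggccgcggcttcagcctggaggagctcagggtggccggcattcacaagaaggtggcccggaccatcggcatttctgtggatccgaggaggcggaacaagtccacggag
RPL13P5: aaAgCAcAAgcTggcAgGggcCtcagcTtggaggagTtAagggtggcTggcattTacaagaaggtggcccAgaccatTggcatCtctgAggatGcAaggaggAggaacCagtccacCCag

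The 7 pseudogenes that rose stand apart from their parents. Of these, 5 are copies of RPL23A, 1 of RPL7 and 1 of RPL32, and in all 7 every DOX library was above every OMO library. Groups without overlap were found upward in 7 and downward in 24 of the 53 pseudogenes, and upward in 36.3% and downward in 35.4% of all genes tested. RPL7P50 and RPL23AP87 passed the filter only through the DOX libraries, all 4 of which were above 1 CPM, so these 2 had to be higher with DOX. For the other 5 the filter did not ask for a difference. The pseudogene just outside the threshold, RPS3AP34, was above 1 CPM in 3 OMO libraries (2.18, 2.13 and 1.67) and below it in the fourth and with DOX (0.630 to 0.912).

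RPL23AP82 showed the highest level of the rising copies of RPL23A. It is a transcribed pseudogene (ENSG00000184319.16, chromosome 22, 50756948 to 50801309, plus strand) with RABL2B, a small GTPase gene, on the opposite strand. It had 5.09, 6.05, 5.47 and 5.14 CPM in OMO and 12.9, 14.5, 13.7 and 13.7 CPM with DOX. The lowest DOX library was therefore well above the highest OMO library, at a log2FC of 1.33 (SE 0.07, adjusted p = 1.39e-08, edgeR). RABL2B rose by 0.47 (SE 0.05). RPL23AP7, on chromosome 2, had 2.63, 2.92, 3.17 and 2.78 CPM in OMO and 6.32, 5.70, 6.16 and 5.09 CPM with DOX, at a log2FC of 1.02 (SE 0.10, adjusted p = 2.09e-06, edgeR).

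RPL23AP53 had 1.36, 1.29, 1.32 and 1.39 CPM in OMO and 3.001, 3.27, 2.71 and 2.62 CPM with DOX. Its log2FC was 1.11 (SE 0.11, adjusted p = 2.3e-06, edgeR), and ZNF596 on the opposite strand had -0.03 and did not pass the test. RPL23AP49, on chromosome 3, had 1.80, 1.83, 1.68 and 1.92 CPM in OMO and 2.59, 1.95, 2.63 and 3.34 CPM with DOX. OMO+DOX replicate 2 was close to the highest OMO library, and the log2FC was 0.55 (SE 0.15, adjusted p = 0.00551, edgeR). RPL23AP87, near the end of chromosome 17, had between 12.1 and 17.2 counts in OMO and between 45.9 and 61.9 with DOX, and its log2FC of 1.98 (SE 0.17) is given as a description.

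Beside the parent, which fell by 0.21, all rising copies of RPL23A had a higher ratio in every DOX library. For those other than RPL23AP87, this separation fixes the exact permutation test, two-sided, at p = 0.0286, so the p adds no support. The difference of the mean log2 ratio was 1.46 for RPL23AP82, 1.11 for RPL23AP7, 1.09 for RPL23AP53 and 0.63 for RPL23AP49. RPL23AP42, the processed copy with a decrease, had a difference of -0.16. Over all 53 pairs the ratio was higher without overlap for 11 pseudogenes and lower for 2, and among the 213 other expressed pseudogenes the shares were 34.3% and 12.7%. The median difference between pseudogene and parent was 0.04 over the 53 pairs and 0.15 over the other pseudogenes, and 41 of the 53 pairs differed by less than 0.2.

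**Figure D3:**
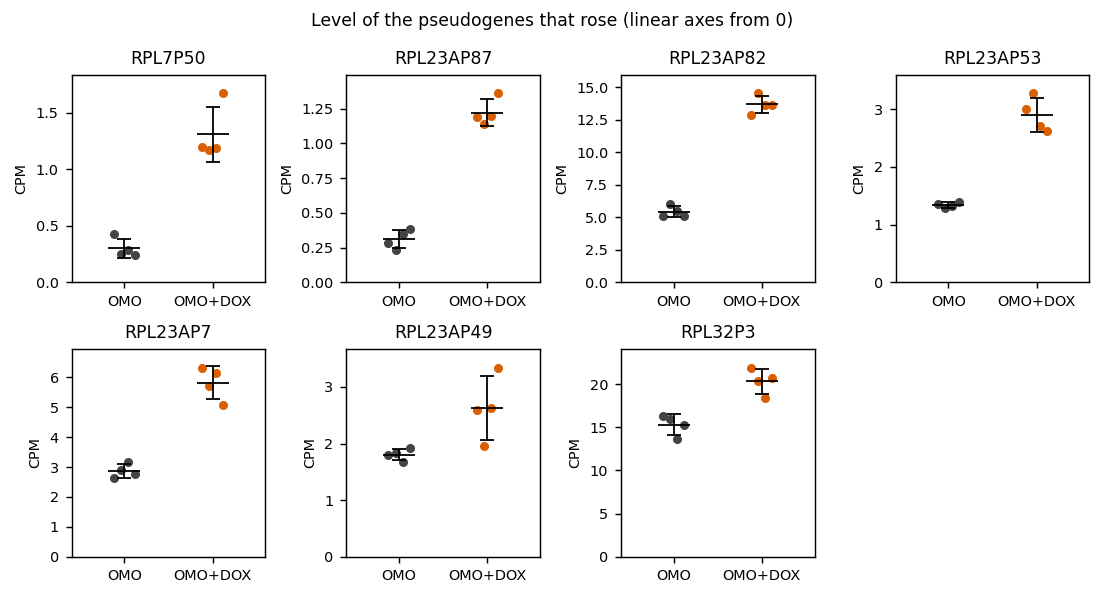
Each panel shows 1 of the 7 pseudogenes that rose, in CPM with TMM-scaled library sizes on a linear axis from 0, with dots for the 4 OMO and 4 OMO+DOX libraries and lines for the mean with its SD. All DOX dots lie above all OMO dots, and RPL23AP49 shows the smallest gap.

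Copies of RPL23A, without RPL23AP53, are shown over the same stretch because they split by direction. The stretch is bases 226 to 345 of the coding sequence (chromosome 17, plus strand). It is the first stretch that aligns without gaps in all copies printed, and capitals mark differences from the parent. RPL23AP42, which fell, is identical to RPL23A over these 120 bases (chr3:161429367-161429486, minus strand). RPL23AP49 lies at chr3:75624925-75625044 and RPL23AP7 at chr2:113612018-113612137, both on the minus strand. RPL23AP82 lies at chr22:50798765-50798884 and RPL23AP87 at chr17:83240034-83240153, both on the plus strand. Each of these stretches lies in 1 exon of the pseudogene.
RPL23A: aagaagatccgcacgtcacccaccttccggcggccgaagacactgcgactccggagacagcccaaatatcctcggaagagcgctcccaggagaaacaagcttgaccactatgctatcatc
RPL23AP49: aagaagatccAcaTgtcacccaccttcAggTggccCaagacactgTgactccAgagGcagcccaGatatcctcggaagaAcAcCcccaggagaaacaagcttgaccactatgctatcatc
RPL23AP7: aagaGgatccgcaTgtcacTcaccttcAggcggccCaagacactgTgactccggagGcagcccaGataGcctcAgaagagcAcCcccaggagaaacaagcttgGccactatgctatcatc
RPL23AP82: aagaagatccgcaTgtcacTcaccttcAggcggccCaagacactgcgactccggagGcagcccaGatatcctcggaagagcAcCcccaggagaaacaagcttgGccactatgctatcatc
RPL23AP87: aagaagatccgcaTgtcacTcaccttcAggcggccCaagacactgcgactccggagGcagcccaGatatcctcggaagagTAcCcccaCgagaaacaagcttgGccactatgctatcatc
RPL23AP49 differs from RPL23A at 12 bases, RPL23AP7 at 13, RPL23AP82 at 9 and RPL23AP87 at 11. At 7 positions the same differing base occurs in all 4 of these copies.

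None of the 100-base windows of the rising copies of RPL23A (longest transcript of each) occurs in RPL23A itself. They share windows with one another instead, so their rises are not independent of each other in these counts. RPL23AP7 shares 40.2% of its windows with RPL23AP82, 28.5% with CENPBD1P1 and 21.4% with AP006222.1. RPL23AP87 shares 54.7% with AP006222.1. AP006222.1, a gene with no ribosomal protein name in GENCODE 29, went from 2.77 ± 0.331 to 5.84 ± 0.364 CPM (mean ± SD, n = 4 in each group), at a log2FC of 1.07 (SE 0.10), and CENPBD1P1 had a log2FC of 0.18 (SE 0.05). RPL23AP53, by contrast, has 98.7% of its windows to itself and RPL23AP49 all of them. Both rose.

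RPL32P3 and RPL7P50 were the 2 members with whole counts in all 8 libraries, and both rose, as did 38.6% of all genes tested. For RPL7P50 the filter, passed only through the DOX libraries, required a higher level with DOX. RPL32P3 (ENSG00000251474.6, chromosome 3, 129382922 to 129399655, minus strand) is an unprocessed pseudogene transcript of 2816 bases in 4 exons, of which the match to RPL32, a large subunit gene, covers 20.8% of that gene's coding sequence. It had 16.3, 16.0, 13.6 and 15.3 CPM in OMO and 21.9, 20.3, 18.4 and 20.7 CPM with DOX. Every DOX library was above every OMO library, at a log2FC of 0.41 (SE 0.07, adjusted p = 0.000245, edgeR), while RPL32 had -0.24 (SE 0.08). The matching bases, the first 96 of the coding sequence, are shown because they are the best local match of its longest transcript to that coding sequence. In RPL32 they lie on chromosome 3 and in RPL32P3 in 1 exon at chr3:129397040-129397135, both on the minus strand. Capitals mark the 4 bases that differ.
RPL32: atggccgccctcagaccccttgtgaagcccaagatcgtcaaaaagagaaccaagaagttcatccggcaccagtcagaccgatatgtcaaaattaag
RPL32P3: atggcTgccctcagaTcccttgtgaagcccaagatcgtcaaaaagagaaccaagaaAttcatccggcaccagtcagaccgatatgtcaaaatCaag

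RPL7P50 is a processed copy of RPL7 (ENSG00000268785.1, chromosome 19, 6593329 to 6594055, plus strand), and CD70, a ligand of the tumour necrosis factor family, lies over it on the opposite strand. It had 21, 13, 14 and 11 counts in OMO and 61, 47, 61 and 76 with DOX. In CPM it went from 0.302 ± 0.0853 to 1.31 ± 0.242 (mean ± SD, n = 4 in each group), a log2FC of 2.10 (SE 0.21), while RPL7 fell by 0.39. CD70 went from 3.78 ± 0.406 to 14.4 ± 1.34 CPM (mean ± SD, n = 4 in each group), a log2FC of 1.93 (SE 0.09). The library kit marks the strand, but whether counting used it is not given in the sources used here, so the reads of this pair cannot be told apart with certainty. Of the 53, RPL7P50 alone was past an adjusted p of 0.001 (edgeR) with an absolute log2FC above 2, as were 7.12% of all genes tested. Since the filter kept it for its level with DOX, this is a description and nothing is read from it. The log2FC was 1.99 without OMO replicate 2 and 1.997 without OMO replicate 4, and without any 1 of the DOX libraries the gene was below the filter.

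The calls are also given by annotated type. Of 41 members typed as processed pseudogenes, 28 fell and 1 rose, with a median log2FC of -0.36. Of the 12 members of a transcribed type, 3 fell and 6 rose, with a median of 0.27. Over all genes tested, 38.1% fell and 38.6% rose. Among the 6 transcribed ones that rose, 5 are copies of RPL23A, of which several share windows and RPL23AP87 passed the filter only through the DOX libraries. So did RPL7P50, the processed one that rose. RPL6P27, RPL9P9 and RPL13P5 were the 3 transcribed ones that fell. These counts are a description, and the difference between the types was not tested.

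Identity to the parent was high in most copies. The median over the 53 was 98.4% of aligned columns against the parent's longest coding sequence, and the lowest was 76.6%, in RPL32P29. All windows of RPL32P29 occur in RPS29, whose exon it overlaps, and its log2FC of -0.35 stood beside -0.41 for RPS29 and -0.24 for RPL32. Of the 30 copies with at least 98% identity, 20 fell and none rose, and their difference from the parent ran from -0.23 to 0.19. Of the 23 below 98%, 11 fell and 7 rose, and the difference ran from -0.32 to 1.56. The 7 include RPL7P50, which gave the value 1.56, and RPL23AP87. Both passed the filter only through the DOX libraries and so had to be higher with DOX. The shares in both identity groups stand beside 38.1% fallen and 38.6% risen over all genes tested. The split by identity was not tested. RPL12P16 is another copy inside an exon of a gene on the same strand. It fell by 0.39, while its host NBEAL1 rose by 1.08 and its parent RPL12 fell by 0.35. All windows of RPL12P16 occur in NBEAL1 and 31.8% in RPL12, so none is its own and its counts are not separate from theirs.

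Counts that are not whole were the rule. In each library, 47 to 50 of the 53 pseudogenes had an expected count more than 0.01 from a whole number (88.7% to 94.3%), against 93.8% to 100% of their parents and 36.9% to 38.7% of the other genes tested. In 39 of the 53 this held in all 8 libraries. A count that is not whole shows that RSEM divided reads between this gene and others, which need not include the parent. RPS18P9 and RPL31P63 had such counts in all 8 libraries without sharing a window, and RPL13P5 shares windows with LRRC23 and none with RPL13. For 40 of the 53, at least 1 window of 100 bases also occurs in the parent, 4 have no window to themselves and 6 share none with any other gene. Windows were taken from the longest transcript of each pseudogene and matched exactly, so its other transcripts and near matches are not covered. The members that share no window were RPL7P50, RPL32P3, RPL23AP49, RPL5P12, RPS18P9 and RPL31P63. Among these, 3 rose, of which RPL7P50 passed the filter only through the DOX libraries. RPL5P12 fell by 0.38 (SE 0.12), and RPS18P9 and RPL31P63 had log2FC of -0.002 and 0.12 and did not pass the test. Over all genes tested, 38.1% fell and 38.6% rose.

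**Figure D4:**
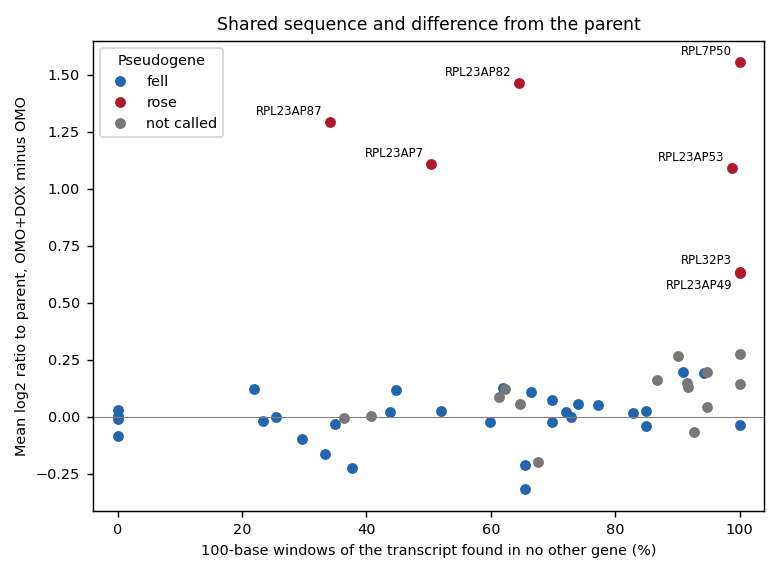
Each dot is 1 of the 53 pseudogenes, placed by the share of 100-base windows of its transcript that occur in no other gene (horizontal, percent) and by the mean log2 ratio to its parent with DOX minus that in OMO (vertical), coloured by its own call. The pseudogenes with no window to themselves lie between -0.08 and 0.03, and the 7 that rose lie above 0.6 at shares from 34.2% to 100%.

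The 15 members that did not pass the test ran from a log2FC of -0.34 to 0.12. RPL5P34 had the lowest value and RPL31P63 the highest. RPL41P2 is identical to the coding sequence of RPL41, the shortest ribosomal protein gene product, but its annotated transcript is longer and has 94.8% of its windows to itself. It had a log2FC of -0.22, beside -0.41 (SE 0.08) for RPL41. RPS4XP16, a transcribed copy of RPS4X that shares an exon with INTS6-AS1, had 0.12, and its ratio to the parent was higher in every DOX library. The others were RPL7AP11, RPL24P4, RPL26P19, RPL13P12, RPS23P8, RPL15P3, RPL7AP6, RPS18P9, RPS3AP26 and RPS27AP16, besides RPS3AP6.

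The position of a copy within another gene was described for all members. Of the 53, 34 lie in no other tested gene, 7 within one on the same strand and 14 opposite one, with some counted in both. Among 22 pairs of a copy and a tested gene around it, both passed the test in 11, with the same direction in 7 and opposite directions in 4. Of all genes tested, 38.1% fell and 38.6% rose, and nothing is read from these pair counts. Some pairs moved apart. RPL18AP3 lies in an intron of TXNRD1, a redox enzyme gene, and fell by 0.35 while TXNRD1 rose by 0.33 (SE 0.06). RPS3AP26 lies in an intron of BAIAP2L1, which fell by 0.99 (SE 0.06), while the copy had a log2FC of 0.02. RPL7AP6 lies opposite SMOC1, which fell by 2.99, and had a log2FC of -0.06.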

How the data were processed

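RNA-Seq libraries of 4 untreated (OMO) and 4 DOX-treated (OMO+DOX) biological replicates of D283-OMO cells were analysed, assigned by their titles. The authors used Trim Galore for trimming, STAR for alignment to GENCODE 32 (GRCh38) and RSEM for gene quantification (versions not given in the sources used here). They deposited raw expected counts, in which reads that match several genes are already divided. Depth was 38390696 to 54020506 counts per library.

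GENCODE 29 (GRCh38) supplied symbols, types, coordinates and transcripts, and 99.3% of the tested genes matched it by identifier. The parent is the symbol without P and the final number. Expected counts were rounded, and genes above 1 CPM of the library total in at least 4 libraries were tested with edgeR 4.0.16 in R 4.3.3 (TMM, quasi-likelihood test, Benjamini-Hochberg adjustment over 15221 genes, no covariates). Rose and fell mean an adjusted p below 0.05. SE is the absolute log2FC over the square root of F. CPM in the text are TMM-scaled unless said otherwise. The ratio to the parent is log2((CPM + 0.5)/(parent CPM + 0.5)) per library, and its differences understate changes of low genes. Identity is from local alignment with Biopython 1.88 (match 2, mismatch -3, gap opening -5, extension -2), and levels per kilobase use the longest transcript of the copy and the transcript with the longest coding sequence of the parent.

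Members and gene lists were chosen with earlier results of these data known. Named genes are the 10 members of highest level, the 8 largest falls and up to 8 largest rises without overlap, members past the fold threshold and the 5 largest differences from the parent in each direction, with their parents. Others were named after their values were seen. In simulated data for this comparison (15221 genes), the test found 100 of 100 genes with a planted log2FC of 1 and called 12 others falsely. The simulation changed 200 genes at 1 common dispersion. It does not measure power or false calls for smaller and more widespread changes such as those seen here. Alternatives were DESeq2 1.42.0, other scalings, filters and rounding, a replicate block, subsets of members and each replicate left out.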

Additional observations from a re-analysis of the deposited data

Results flagged for a closer look

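In 50 groups of 4 values, Dixon's test at its 95% critical value marked 4, where about 1 in 20 is expected by chance. RPS2P5 stood at 503 CPM in OMO replicate 3, against 413 to 424 CPM in the other OMO libraries. RPL9P9 stood at 402 CPM in the same library, against 323 to 335 CPM. RPL7P50 stood at 1.67 CPM in OMO+DOX replicate 4, against 1.17 to 1.20 CPM in the other DOX libraries. RPL10P16 stood at 1.81 CPM in OMO+DOX replicate 1, against 1.98 to 1.999 CPM.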

How the results depend on the processing

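The 7 rises were called under every alternative in which these genes were tested, and RPL23AP87 and RPL7P50 dropped below the filter when more than 4 libraries were asked for or a DOX library was left out, with 5 rises left. With each replicate left out in turn, the members called ranged from 27 to 38, those that fell from 22 to 31, those that rose from 5 to 7, and those past the fold threshold from 0 to 2. The ratio to the parent without overlap was lower for 2 to 5 members and higher for 11 to 15, and the median difference ran from 0.02 to 0.07.

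With library size only, the median log2FC of the members was -0.18, RPS3AP6 turned to 0.055, and 2 members passed the fold threshold. At a stricter filter, or for members above 1 CPM in all 8 libraries, 0 passed it. For the members with whole counts in every library, 2 of 2 were called, 0 fell and 2 rose, at a median of 1.25, since these are RPL32P3 and RPL7P50. The filter required RPL7P50 to be higher with DOX, so nothing is read from this count. A pseudocount of 2 CPM gave a median difference from the parent of 0.12. With TMM-scaled library sizes the mean share of the members was 0.142% with DOX in place of 0.148%. With a tolerance of 0.1, 73.3% of member counts were not whole, in place of 91.7%. Under the other alternatives these values stayed within 1.5 times the count or within the spread between replicates.

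The replicate numbers are given in both groups, but same-numbered libraries correlated in their deviations at only -0.18 to 0.24. With the number as a replicate block, 37 members were called, 30 of them lower, all among the 31, with a median log2FC of -0.30. With current gene symbols added to those of GENCODE 29, an alternative chosen after seeing the data, 69 genes qualified. Depth limits the rarest copies, such as RPL7P50 with 11 to 21 counts in OMO.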
